A study of Mus musculus with 12 samples.

Results

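The comparison covers the nucleus pulposus (NP), the gel-like core of the intervertebral disc, in mice that lack 1 functional copy of Nfat5, the gene of the transcription factor TonEBP. It uses 6 of the 12 arrays of the series, 3 from TonEBP +/- and 3 from wild-type (WT) mice, and they were taken by their labelled tissue and genotype. All 6 mice were C57BL/6 and 12 months old, and each sample held NP dissected from the lumbar discs, L1 to S1, of 1 mouse. The labels call the mutant mice haploinsufficient without naming the allele or how it was made, and they give no sex, batch or animal number. The other 6 arrays of the series hold the annulus fibrosus (AF), the fibrous outer ring of the disc, from the same groups of mice. The series addresses how partial loss of TonEBP bears on age-related degeneration of the disc.

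NP cells descend from the embryonic notochord and live without blood vessels in a matrix rich in aggrecan, whose charged sugar chains draw in water and make the surroundings hyperosmotic. TonEBP is the main transcription factor of the hyperosmotic response: it enters the nucleus when tonicity rises and switches on genes that bring in or make compatible osmolytes, and heat shock proteins. Blood-forming marrow lies in the vertebrae on either side of each disc, and neutrophils, red cells and their precursors carry abundant transcripts of their own. For this reason genes of blood and marrow cells are described apart from genes well expressed in the NP samples.

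RNA was hybridised to Clariom S Mouse arrays, and each value is a log2 signal, so that a difference of 1 is a 2-fold difference. A cluster is the array's unit for a gene, and 22206 clusters were compared. Array medians lay between 6.82 and 6.87, and the arrays correlated at 0.985 to 0.988 within a genotype and at 0.981 to 0.989 between genotypes. Background was set for each array at the 95th percentile of its background probe sets (7.11 to 7.33), and 44.0% to 46.8% of clusters lay above it. Differences are TonEBP +/- minus WT, with the standard error (SE) and adjusted p of limma on the 6 arrays, n = 3 per genotype. The number of arrays limits the precision: the median 95% confidence interval reached 0.48 log2 to either side.

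The tissue label was checked against genes known from NP. The keratin Krt8 was at 16.86, 17.06 and 17.12 in WT and 16.94, 17.07 and 17.34 in TonEBP +/- mice. Krt19, another keratin of NP cells, was at 17.60, 17.32 and 17.55 and 17.69, 17.46 and 17.23. The surface glycoprotein Cd24a was at 18.21, 18.03 and 18.03 and 18.05, 18.17 and 18.06. These genes were far above background on every array and their genotypes overlapped. The carbonic anhydrase Car3 stood at the array maximum (19.9) and Acan, the aggrecan core protein, close to it (19.2 to 19.5). At that level a rise cannot be measured and a small loss may be hidden. Acan differed by 0.09 log2. The notochord transcription factor Tbxt was not analysed here.

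Nfat5 itself was at 9.12, 8.80 and 8.34 in WT and 9.06, 9.62 and 9.09 in TonEBP +/- mice. The genotypes overlapped, and no TonEBP +/- array lay below the WT range. The difference was 0.50 log2 (95% confidence interval -0.05 to 1.06, adjusted p = 0.838), and an interval with that lower bound does not reach a loss of 2-fold. Which part of the gene the probes cover is not known here, so the value may check nothing about the genotype labels.

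In the NP of TonEBP +/- mice, transcripts of neutrophils and their precursors, of other leucocytes, of red cell precursors and of dividing cells were lower on all 3 arrays than on any WT array for many genes, while transcripts of NP cells mostly overlapped. At an adjusted p under 0.05, limma on the 6 arrays called 0 clusters in either direction (smallest adjusted p = 0.123, shared by 14 clusters), and 1383 clusters (6.23%) had an unadjusted p under 0.05, 879 of them lower (3.96%) and 504 higher (2.27%). Fits with an intensity trend or a robust prior also called 0, with smallest adjusted p of 0.0916 and 0.0931. The same model on all 12 arrays of the series called 25 clusters (0.113%), all lower in TonEBP +/- mice. That fit shares the spread between both tissues and treats the arrays as independent, with no pairing by mouse. Of these 25, 9 belong to the blood and marrow lists and 4 have no gene name here. Leaving out WT array 3 from the 6 gave 63 calls, 62 lower and 1 higher, of which 15 are among the 25. Leaving out TonEBP +/- array 3 gave 5 calls, all lower, and 0 of these were shared with the 63. The other 4 omissions gave 0 calls.

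As a description without a test, 431 clusters (1.94%) were lower and 158 (0.712%) higher by at least 1.5-fold with no overlap between genotypes. Thus 73.2% of these clusters were lower as the values were deposited, 60.9% with each array's median subtracted (357 lower and 229 higher) and 67.9% after quantile normalization of the 6 arrays (383 and 181). Of the 431 lower clusters, 54 belonged to blood and marrow lists, 33 to histone genes, 13 to the cell cycle and 6 to the interferon list, against 0 of the 158 higher clusters in each case. Lists of NP cells and their matrix held 3 of the lower and 7 of the higher clusters. On no array were 165 of the lower and 53 of the higher clusters above background, and those are counted but not given a fold change. The shares below are to be read against 1.94% lower and 0.712% higher. The gene lists were chosen with earlier results of these data known, so their shares are a description and not independent support.

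**Figure D1:**
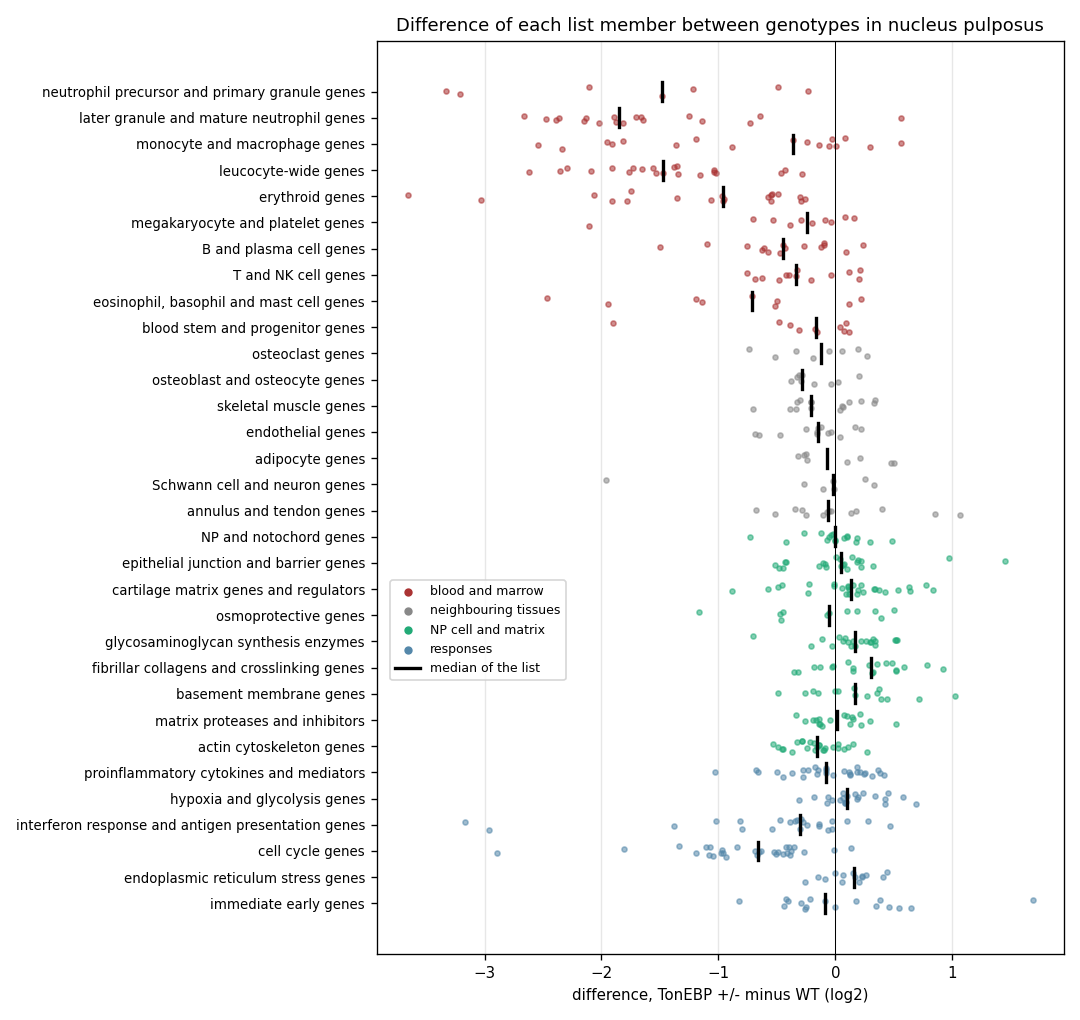
Each point is 1 gene of a list, placed by its difference between genotypes (TonEBP +/- minus WT, log2), and the black bar is the list's median. The medians of the neutrophil, leucocyte-wide and erythroid lists lie between -1.85 and -0.96, and those of the NP cell and matrix lists between -0.16 and 0.30.

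The blood and marrow lists held 139 measured genes. Of these, 54 were lower with no overlap and at least 1.5-fold, and 0 were higher, with a median difference of -0.70 against 0.01 over all clusters. Their mean signal on an array came to 8.04, 8.13 and 7.51 in WT and 7.05, 6.60 and 7.11 in TonEBP +/- mice, so the genotypes did not overlap. WT array 3 was the lowest of the WT arrays and TonEBP +/- array 2 the lowest of all. In bulk tissue, fewer cells of a type and less RNA per cell cannot be told apart.

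Neutrophils arise in marrow from precursors that fill their primary granules with serine proteases and myeloperoxidase, and later add secondary and tertiary granule proteins. Of 7 genes of the precursor stage, 5 were lower with no overlap and at least 1.5-fold (median -1.48). Mpo, the myeloperoxidase of the primary granule, was at 13.26, 13.87 and 13.05 in WT and 10.26, 8.82 and 11.11 in TonEBP +/- mice. The highest TonEBP +/- array lay well below the lowest WT array. The difference was -3.33 log2 (SE 0.485; 10.1-fold lower; adjusted p = 0.123), with adjusted p = 0.0079 in the 12-array fit. Elane, neutrophil elastase, was at 11.38, 12.76 and 11.81 and 9.03, 7.38 and 9.92, again without overlap (difference -3.21, SE 0.568, adjusted p = 0.193). Ctsg, cathepsin G, was at 7.73, 8.68 and 8.06 in WT and 5.88, 5.91 and 6.36 in TonEBP +/- mice, where it was above background on 0 of 3 arrays. A gene in that position has only a bound, the WT mean against the mean background level of the TonEBP +/- arrays: Ctsg was at least 1.97-fold lower. By the same measure Prtn3, proteinase 3, was at least 1.71-fold and Ms4a3, a membrane protein of granulocyte and monocyte precursors, at least 1.57-fold lower. The remaining members, the transcription factors Cebpe and Gfi1, were above background on 0 of 6 arrays.

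Upstream sequences of the 3 granule enzymes that were lower together are shown because these genes are known to be driven in myeloid cells by PU.1, the factor encoded by Spi1. Each is the 250 bases before the gene's start in RefSeq (GRCm38.p6), written in the direction of the gene, with the letters of a PU.1 core, GAGGAA, in capitals.
Mpo: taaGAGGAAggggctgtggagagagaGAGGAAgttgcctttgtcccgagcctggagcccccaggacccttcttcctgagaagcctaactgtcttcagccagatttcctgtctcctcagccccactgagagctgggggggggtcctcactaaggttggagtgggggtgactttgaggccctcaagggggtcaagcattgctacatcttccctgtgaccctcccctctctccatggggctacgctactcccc
Elane: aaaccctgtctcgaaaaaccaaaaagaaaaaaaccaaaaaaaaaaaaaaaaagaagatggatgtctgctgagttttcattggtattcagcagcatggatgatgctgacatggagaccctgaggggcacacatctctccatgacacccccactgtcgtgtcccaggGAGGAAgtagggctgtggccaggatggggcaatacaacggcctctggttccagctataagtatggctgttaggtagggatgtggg
Ctsg: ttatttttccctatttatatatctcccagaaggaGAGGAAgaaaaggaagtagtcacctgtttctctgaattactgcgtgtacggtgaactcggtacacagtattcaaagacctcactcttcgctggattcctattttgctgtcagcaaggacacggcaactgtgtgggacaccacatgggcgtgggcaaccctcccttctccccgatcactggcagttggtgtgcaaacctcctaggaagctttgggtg
The windows are chr11:87793534-87793783, plus strand (Mpo), chr10:79886062-79886311, plus strand (Elane) and chr14:56102575-56102824, minus strand (Ctsg). GAGGAA was searched on both strands and found 2 times for Mpo, 1 time for Elane and 1 time for Ctsg, all on the gene's strand. It also occurs in 23.3% of the 32851 windows of this length in the table, so the match describes the sequence and shows no binding. The core of the TonEBP site, TGGAAA, occurs in 18.6% of windows and in none of these. Spi1 was at 13.74, 13.65 and 11.78 in WT and 11.43, 9.73 and 11.73 in TonEBP +/- mice, with all 3 TonEBP +/- arrays below the WT arrays (difference -2.09, SE 0.596, adjusted p = 0.496).

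Genes of later granules and mature neutrophils had the lowest median of the lists over all measured members, -1.85, and 6 of 18 met the rule of no overlap and 1.5-fold. Among members with a mean signal above background the median was -1.88, and that of the precursor list was lower, -3.21. Without WT array 3, a count made after seeing the data, 17 of the 18 were lower without overlap at any size. Over all clusters that share was 5.93% with 6 arrays and 11.5% without WT array 3, since fewer arrays overlap less often. S100a8, a subunit of calprotectin, shows this: it was at 15.91, 16.06 and 14.06 in WT and 13.93, 11.70 and 14.34 in TonEBP +/- mice. For the list as a whole the mean signal came to 11.75, 11.56 and 10.14 against 9.96, 8.30 and 10.19, so the genotypes overlapped at WT array 3. Ngp, the neutrophilic granule protein, did not overlap (17.78, 18.03 and 16.63 against 16.14, 13.70 and 16.13; difference -2.15, SE 0.611, adjusted p = 0.496). Nor did lactoferrin, Ltf (11.68, 12.11 and 9.85 against 9.17, 7.63 and 9.42). The antimicrobial peptide Camp was at least 3.65-fold lower, from 9.48, 10.15 and 7.52 to values not above background.

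Among 21 leucocyte-wide genes, all had a negative difference and 12 were lower with no overlap and at least 1.5-fold (median -1.47). Ptprc, the pan-leucocyte antigen CD45, was at 10.90, 10.25 and 9.45 in WT and 8.63, 8.36 and 9.00 in TonEBP +/- mice (difference -1.54, SE 0.337, adjusted p = 0.282). Cybb, the catalytic subunit of the phagocyte NADPH oxidase, was at 13.28, 13.92 and 11.95 and 10.75, 9.40 and 11.14 (difference -2.62, SE 0.529, adjusted p = 0.252), and its partners Ncf1 and Ncf4 differed by -2.35 and -1.73. None of these overlapped. Monocyte and macrophage genes were divided, with 8 of 17 lower by the same rule and a median of -0.36. Only 6 of the 17 were above background on all 3 arrays of a genotype. The 5 with a mean signal above background had a median of -1.95. Lyz2, the lysozyme of myeloid cells, was at 13.52, 13.23 and 12.16 and 11.28, 9.29 and 10.72 (difference -2.54, SE 0.491, adjusted p = 0.225). Ly6c2, a surface antigen of inflammatory monocytes and precursors, was at 11.91, 11.77 and 10.81 and 9.72, 8.53 and 9.23 (-2.34, SE 0.354, adjusted p = 0.123), and the inhibitory myeloid lectin Clec12a, in none of the lists, differed by -2.19 (SE 0.324, adjusted p = 0.123). Ly6c2 has a near-identical neighbour, Ly6c1, which differed by -1.98, and probes may not tell them apart. In contrast, Csf1r, the receptor that maintains macrophages, overlapped throughout (12.13, 11.29 and 12.49 against 12.47, 12.11 and 11.35), and the complement gene C1qa, typical of resident macrophages, was above background on 0 of 6 arrays.

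Red cell precursors make haem, band 3 and the membrane skeleton before they lose their nucleus. All 19 measured erythroid genes had a negative difference, and 11 were lower with no overlap and at least 1.5-fold (median -0.96). Slc4a1, the band 3 anion exchanger, was at 11.84, 13.21 and 10.95 in WT and 9.06, 8.89 and 8.96 in TonEBP +/- mice. The TonEBP +/- arrays lay close together and the WT arrays far above them (-3.03 log2, SE 0.454, 8.16-fold lower, adjusted p = 0.123; 0.0109 in the 12-array fit). Ctse, an aspartic protease of red cell precursors and some immune cells, was at 11.50, 12.86 and 11.19 and 8.45, 7.24 and 8.90, 12.6-fold lower (SE 0.484 log2, adjusted p = 0.123). It had the smallest adjusted p of the 12-array fit among the genes named here, 0.00383. Alas2, the first enzyme of haem synthesis in red cells, was at 9.88, 11.23 and 9.13 and 8.19, 7.67 and 8.18, and the mitochondrial iron importer Slc25a37 differed by -1.91. Rhag, a Rh blood group glycoprotein, was at least 2.24-fold lower. The globin genes Hba-a1 and Hbb-bt were not analysed here. Myb, which keeps blood progenitors dividing, was at least 1.94-fold lower (7.81, 8.40 and 8.19 in WT, not above background in TonEBP +/- mice), the largest difference among 10 stem and progenitor genes, of which 1 met the rule.

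Lists of other blood cells lay mostly at background. Of 9 eosinophil, basophil and mast cell genes, 3 were lower with no overlap and at least 1.5-fold (median -0.71). The eosinophil granule genes Epx and Prg2 differed by -1.94 and -2.47, and Prg2 overlapped through TonEBP +/- array 3 (10.81, 10.72 and 9.56 against 7.31, 6.80 and 9.59). Among 15 B and plasma cell genes 5 met the rule (median -0.45), among 13 T and NK cell genes 1 (-0.34) and among 10 megakaryocyte and platelet genes 2 (-0.24). Only 1 member of each of these lists was above background on all 3 arrays of a genotype, and the defining genes Cd79a, Cd3e and Pf4 were above background on 0 of 6 arrays, so no fold change is given for them. The mean signals of the B cell and the T and NK cell lists did not overlap between genotypes (5.59 to 5.63 in WT and 5.15 to 5.17 in TonEBP +/- mice for B cells), but these levels are below background. The osteoblast list, with 0 members above background on all 3 arrays of a genotype, separated as well (5.36 to 5.39 against 5.14 to 5.26), so nothing is read from these means.

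**Figure D2:**
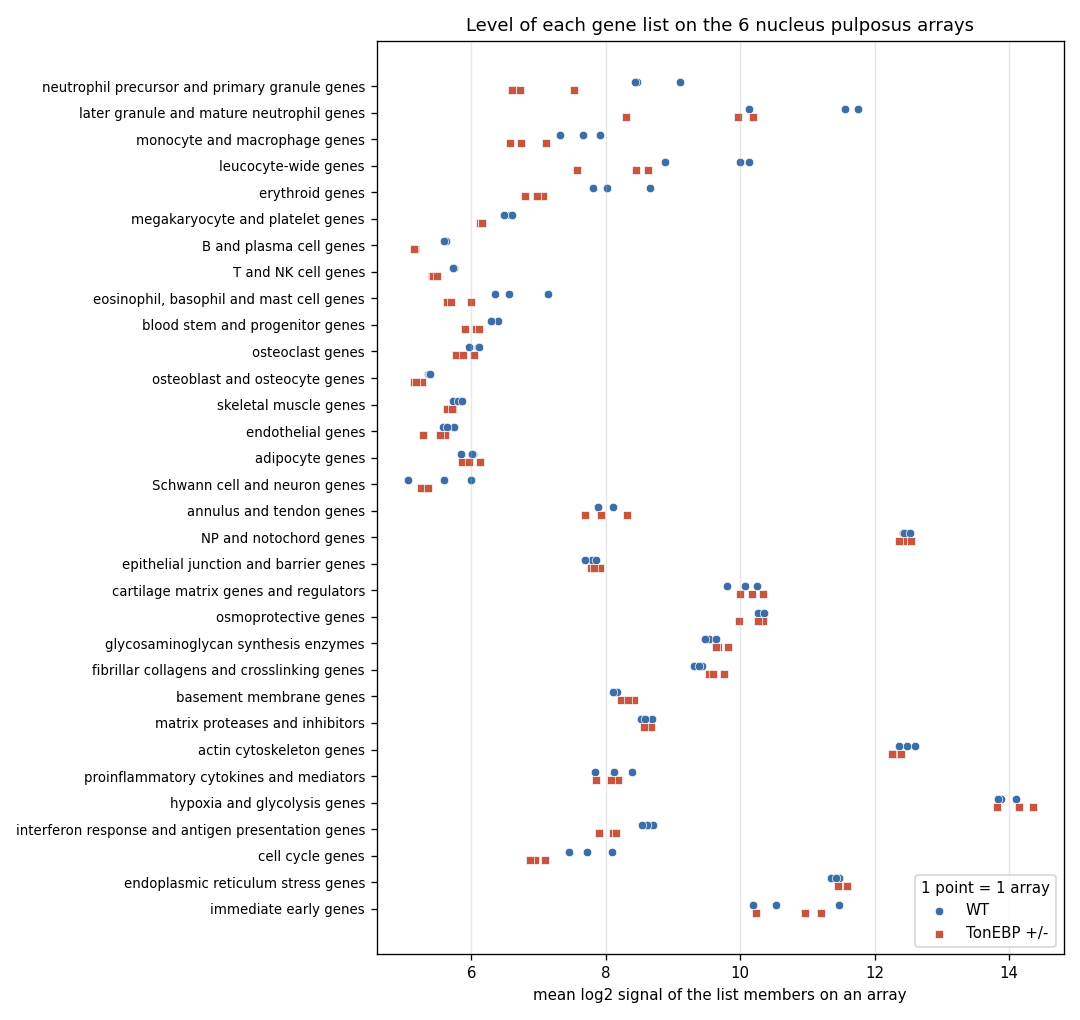
Each point is 1 array, placed by the mean log2 signal of the genes of a list, circles for WT and squares for TonEBP +/- mice. The points of the neutrophil precursor, monocyte, leucocyte-wide, erythroid and cell cycle lists separate by genotype, those of later granule genes overlap, and the NP and notochord list lies between 12.36 and 12.55 on all 6 arrays. Eosinophil, stem cell, megakaryocyte, B cell, T and NK, osteoblast and interferon lists also separate downward, all but the last near or below background. Glycosaminoglycan, fibrillar collagen and basement membrane lists separate upward, the first narrowly (nearest arrays 9.638 and 9.641).

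Genes of dividing cells were lower as well. Of 30 cell cycle genes, 29 had a negative difference and 13 were lower with no overlap and at least 1.5-fold (median -0.66). Mki67, the proliferation antigen Ki-67, was at 12.02, 13.06 and 11.22 in WT and 9.23, 8.73 and 9.65 in TonEBP +/- mice, 7.44-fold lower (-2.90 log2, SE 0.416, adjusted p = 0.123; 0.0079 in the 12-array fit). The repressor E2f8, which acts late in the S phase programme and stands in none of the lists, was at 9.57, 10.32 and 8.97 and 6.81, 7.49 and 7.61 (-2.32, SE 0.341, adjusted p = 0.123). The ribonucleotide reductase subunit Rrm2 differed by -1.33, and Ube2c, the ubiquitin-conjugating enzyme of mitotic exit, was at least 1.83-fold lower. In each case WT array 2 was the highest. The list's mean signal came to 7.71, 8.09 and 7.45 in WT and 6.95, 6.87 and 7.10 in TonEBP +/- mice, in both genotypes with the same lowest array as the blood and marrow lists. How far the latter lists account for it was not tested.

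Histone genes of the replication-dependent clusters, transcribed in S phase, were added as a list after their values were seen. Of 57 such genes 33 were lower with no overlap and at least 1.5-fold, and the median was -1.16. H2ac10 was at 13.29, 13.88 and 11.74 in WT and 10.95, 9.92 and 10.92 in TonEBP +/- mice (difference -2.37, SE 0.492, adjusted p = 0.257). H2ac12 and H2ac11 differed by -2.29 and -2.21, and H2ac15 had the largest difference, -3.57 (SE 0.8, adjusted p = 0.302). These H2A genes are near-identical copies that share probe sequence, so they are not independent of each other. The list's mean signal came to 10.44, 10.68 and 9.63 in WT and 9.22, 8.70 and 9.31 in TonEBP +/- mice, with WT array 3 nearest to the TonEBP +/- arrays, as in the blood and marrow lists. Their part in the histone difference was not tested.

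Interferon response and antigen presentation genes had 6 of 23 members lower with no overlap and at least 1.5-fold (median -0.30). Ly6e, an interferon-induced surface protein, was at 12.67, 13.63 and 11.99 in WT and 10.66, 8.29 and 10.47 in TonEBP +/- mice (difference -2.96, SE 0.597, adjusted p = 0.252). Ube2l6, the conjugating enzyme of the ISG15 pathway, was at 9.25, 10.17 and 8.17 and 6.92, 5.01 and 6.16 and was at least 4.04-fold lower. The antiviral membrane protein Ifitm3 and the antiviral enzyme Rsad2 differed by -1.38 and -1.02, and the immunoproteasome subunits Psmb8 and Psmb9 by -0.80 and -0.82. Isg15, the defining member of its pathway, was above background on 0 of 6 arrays. Sp100, an interferon-inducible nuclear body protein that stands in none of the lists, was at 9.94, 10.05 and 9.40 in WT and 8.02, 7.68 and 8.28 in TonEBP +/- mice, without overlap (-1.80, SE 0.238, adjusted p = 0.123). Leucocytes and red cell precursors also express several of these genes, and the part of blood cells in these values was not tested.

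Set against the genotype difference in AF, from all 12 arrays, the difference in NP had another size or direction (adjusted p under 0.05) for 38 of the 139 genes named by the rule and for 0.887% of all clusters, and 34 of the 38 contrasts were negative. Among the 38 were Mpo, with a contrast of NP minus AF of -4.31 log2, Elane (-4.91), Slc4a1 (-2.88) and Mki67 (-3.47). The AF differences of these genes were 0.98, 1.70, -0.15 and 0.57, and none of the 4 passed the test in AF (adjusted p = 0.183, 0.0658, 0.874 and 0.393, limma on 12 arrays). Of all 38, however, 18 passed in AF, 14 of them higher and 4 lower in TonEBP +/- mice. Those higher in AF included Ptprc (1.58) and Camp (2.11), so these contrasts hold differences of both tissues. The named genes were chosen by their NP values, which enter this contrast too.

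Tissues that border the NP were looked for by their own genes. Osteoclast, skeletal muscle and endothelial lists each had 1 gene lower by the rule and 0 higher, with medians of -0.13, -0.21 and -0.14, and osteoblast, adipocyte, Schwann cell and neuron, and annulus and tendon lists had 0 in either direction. The defining genes Acp5 (osteoclasts), Bglap (osteoblasts), Acta1 (skeletal muscle) and Pecam1 (endothelium) were above background on 0 of 6 arrays. Col1a1, the main collagen chain of annulus and bone, was at 8.55, 8.71 and 8.19 in WT and 8.63, 8.78 and 7.87 in TonEBP +/- mice and overlapped. Dcn, decorin, was at 11.12, 8.57 and 7.05 in WT and 9.96, 11.22 and 8.76 in TonEBP +/- mice, with a wider spread within each genotype than between them. Mbp, a myelin protein, was high on WT array 1 alone (11.43, 7.39 and 5.84; 6.43, 5.85 and 6.49 in TonEBP +/- mice).

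Genes that identify NP cells had a median difference near 0. Of 17 measured NP and notochord genes, Car3 and Lgals3 lay above 19 on every array, too near the maximum to show a rise. Without them the median difference of the 15 others was 0.00. Of the 10 among these that were above background on all 3 arrays of a genotype, 9 had a 95% interval that stayed within 2-fold either way (89.6% of all clusters did), and their median was -0.017. The mean signal of all 17 genes, Car3 and Lgals3 included, came to 12.43, 12.43 and 12.52 in WT and 12.42, 12.55 and 12.36 in TonEBP +/- mice. Krt18, the keratin partner of Krt8, differed by 0.18 (95% interval -0.29 to 0.66), Krt19 by -0.03 (-0.47 to 0.40) and Cd24a by 0.00 (-0.38 to 0.39). Shh, the notochord's signalling ligand, overlapped (10.99, 10.53 and 11.33 against 10.41, 11.33 and 10.91), as did the heparan sulphate proteoglycan Gpc3 (16.59, 16.51 and 16.66 against 16.41, 16.45 and 16.72). Noto, a notochord homeobox gene close to background, was the member that met the rule of no overlap and 1.5-fold. It was at 7.57, 7.69 and 7.82 in WT and 6.70, 7.49 and 6.69 in TonEBP +/- mice, above background on 3 and 1 of 3 arrays (difference -0.73, SE 0.242, adjusted p = 0.645).

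The cartilage-like matrix is what gives the NP its swelling pressure, through aggrecan held on hyaluronan by link protein and caught in a thin collagen network. Of 28 genes of this matrix and its regulators, 0 were lower and 2 higher with no overlap and at least 1.5-fold, and the median was 0.14. Those were Ucma, a small secreted cartilage protein (11.13, 10.59 and 11.04 in WT, 11.45, 12.46 and 11.19 in TonEBP +/- mice; difference 0.78, SE 0.316, adjusted p = 0.76), and Col11a2, a fibril-nucleating collagen chain (difference 0.64, SE 0.249, adjusted p = 0.746). Sox9, the master regulator of aggrecan and type II collagen, was at 16.68, 17.59 and 16.68 and 16.79, 17.36 and 17.35 and overlapped (0.19, 95% interval -0.44 to 0.82). The link protein gene Hapln1 was at 17.18, 17.67 and 17.47 and 17.59, 18.00 and 17.84, higher by 0.37 with overlap, and the type II collagen gene Col2a1 at 9.96, 11.69 and 10.34 and 10.79, 12.03 and 11.69 (0.84, SE 0.443). Comp, Prg4 and Chad, genes of cartilage-facing and superficial cells, spread more among the WT arrays than between the genotypes. Chad was at 10.90, 9.27 and 7.62 in WT and 9.13, 8.64 and 7.38 in TonEBP +/- mice.

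Enzymes that build glycosaminoglycan chains had a median of 0.17, with 1 of 21 lower and 0 higher by the rule. Ugdh, which makes the UDP-glucuronate that the chains are built from, was at 12.33, 12.98 and 12.66 in WT and 13.00, 13.10 and 13.39 in TonEBP +/- mice, a difference of 0.51 without overlap (SE 0.218, adjusted p = 0.778). The sulphate donor synthase Papss1 differed by 0.26, also without overlap, and the chondroitin 6-sulphotransferase Chst3 by 0.52 with overlap. The gene that was lower, Chst15, lay at background in TonEBP +/- mice.

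Fibrillar collagens and their crosslinking enzymes had the highest median of the NP lists, 0.30. The list's mean signal came to 9.31, 9.43 and 9.39 in WT and 9.53, 9.76 and 9.59 in TonEBP +/- mice, and the arrays did not overlap. The nearest arrays, 9.43 and 9.53, lay close together, and the separation was not tested. Loxl3, a lysyl oxidase that crosslinks collagen, was the only 1 of 20 members to meet the rule, at 12.88, 13.20 and 13.47 and 14.36, 14.37 and 13.60 (difference 0.93, SE 0.257, adjusted p = 0.476). The type VI collagen chains Col6a2 and Col6a1, which form the pericellular basket of NP cells, differed by 0.52 and 0.43, and Col6a2 was at 14.15, 14.27 and 14.15 and 14.96, 14.68 and 14.48. The prolyl hydroxylase subunit P4ha2 and the lysyl hydroxylase Plod2 differed by 0.78 and 0.58 with overlap.

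Basement membrane genes likewise had a median of 0.17, with 2 of 15 higher and 0 lower by the rule. The multiplexin collagen Col18a1 was at 7.66, 8.68 and 8.11 in WT and 9.30, 8.72 and 9.50 in TonEBP +/- mice, and TonEBP +/- array 2 exceeded WT array 2 only narrowly (difference 1.02, SE 0.293, adjusted p = 0.496). Its relative Col15a1 was at 8.22, 9.15 and 8.92 and 9.52, 9.56 and 9.36 (difference 0.72, SE 0.247, adjusted p = 0.675). The list's mean signal came to 8.13, 8.16 and 8.11 against 8.42, 8.23 and 8.32, without overlap. Here too the nearest arrays, 8.16 and 8.23, lay close together, and the separation was not tested. Among 18 matrix proteases and inhibitors 0 met the rule in either direction (median 0.01). The serine protease Htra1 was at 18.29, 18.35 and 18.41 and 18.42, 18.52 and 18.54, and the inhibitor Timp3 differed by 0.21.

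Osmoprotective genes, the class through which TonEBP is best known, had a median of -0.05, with 1 of 11 measured members lower and 0 higher by the rule. Their differences were poorly determined: 4 of 11 intervals (36.4%) stayed within 2-fold, against 89.6% of all clusters. That member, Aqp1, a water channel, was at 7.80, 7.72 and 7.82 in WT and 6.53, 6.33 and 6.97 in TonEBP +/- mice. It was above background on all WT arrays and on 0 of 3 TonEBP +/- arrays, at least 1.52-fold lower (SE 0.207 log2, adjusted p = 0.193). Aqp1 is also abundant in red cells, whose own genes were lower on the same arrays. Their part in its value was not tested. The betaine transporter Slc6a12 was at 12.70, 13.70 and 13.79 and 12.56, 14.41 and 14.40, with overlap and a wide 95% interval (-0.68 to 1.47). The taurine transporter Slc6a6 was at 14.68, 13.82 and 13.73 and 14.37, 14.34 and 14.08 (difference 0.18, 95% interval -0.40 to 0.77). The inducible heat shock genes Hspa1a and Hspa1b differed by -0.44 and -0.47 with overlap. The intervals of Slc6a6 and Slc6a12 leave room for a smaller loss but not for a loss of 2-fold. The targets Akr1b3 and Slc5a3 were not analysed here.

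Actin cytoskeleton genes had a median of -0.16, with 25 of 25 intervals inside 2-fold, where 89.6% of all clusters stayed. The rule was met by 0 of 25, against 1.94% lower and 0.712% higher over all clusters. Without a minimum fold, 4 were lower with no overlap and 0 higher, where 5.93% of all clusters were lower and 5.34% higher at any size. Tln1, talin, which joins integrins to actin, was at 15.06, 14.99 and 14.79 in WT and 14.11, 14.47 and 14.67 in TonEBP +/- mice (difference -0.53, SE 0.203, adjusted p = 0.74). Ezr, ezrin, was at 14.32, 14.48 and 14.60 and 13.56, 14.07 and 14.30, and the others were Actn1 (-0.46) and the non-muscle myosin heavy chain Myh9 (-0.28). Leucocytes also express these genes, and the part of blood cells was not tested.

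Proinflammatory cytokines and mediators had 0 of 29 members meeting the rule in either direction and a median of -0.08. The cytokines Il6 and Tnf and the chemokine Ccl2 were above background on 0 of 6 arrays. Il1b, interleukin 1 beta, was at 10.69, 8.92 and 9.33 in WT and 9.18, 7.00 and 9.68 in TonEBP +/- mice and overlapped (difference -1.03, SE 0.649, adjusted p = 0.904). The chemokine Cxcl12 was at 12.14, 11.45 and 11.74 and 11.77, 11.32 and 11.11, and the syndecan Sdc4, a cell surface proteoglycan of NP cells, at 16.08, 16.04 and 15.99 and 16.84, 16.31 and 16.23. Cxcl12 overlapped and Sdc4 did not; Sdc4 was higher by 0.42 (SE 0.207, adjusted p = 0.838).

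Hypoxia and glycolysis genes, on which NP cells rely, had a median of 0.10 and 0 of 22 meeting the rule. Hif1a, the oxygen-regulated transcription factor, was at 13.61, 13.64 and 13.62 in WT and 13.71, 13.98 and 13.76 in TonEBP +/- mice (difference 0.19, 95% interval -0.20 to 0.58), and its target Vegfa overlapped (14.69, 16.29 and 15.60 against 15.10, 15.40 and 16.33). Endoplasmic reticulum stress genes had a median of 0.16 with 0 of 14 meeting the rule. The disulphide isomerase Pdia6 differed by 0.41 without overlap, and the transcription factor Xbp1 by 0.44 with overlap. Among 23 epithelial junction and barrier genes 2 were higher by the rule (median 0.05): Klk10, a kallikrein-related serine protease, at 7.46, 7.67 and 7.45 in WT and 8.52, 8.41 and 8.56 in TonEBP +/- mice, and Slurp1, a secreted Ly6 protein, at 7.66, 8.73 and 7.12 and 9.32, 9.24 and 9.30. The desmosome plaque gene Pkp2 was lower on all 3 TonEBP +/- arrays, with a difference of -0.52 (SE 0.17, adjusted p = 0.64).

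Among the genes named as higher in TonEBP +/- mice, Nr4a1, an orphan nuclear receptor of the immediate early class, had the smallest p. It was at 9.74, 10.07 and 9.94 in WT and 11.25, 11.48 and 12.08 in TonEBP +/- mice. The WT arrays were close together, and every TonEBP +/- array exceeded them by more than 1 log2. The difference was 1.69 log2 (SE 0.238, 3.22-fold higher, adjusted p = 0.123), and it did not pass in the 12-array fit (adjusted p = 1). Its relative Nr4a2 was at 6.73, 7.39 and 7.55 and 7.60, 8.18 and 8.54 (0.88, SE 0.29, adjusted p = 0.64), and Nr4a3 was above background on 0 of 6 arrays. Immediate early genes are switched on within minutes by many stimuli, and the rest of the list did not separate: its median was -0.09 and 1 of 17, Nr4a1, met the rule. The list's mean signal came to 10.20, 10.53 and 11.47 in WT and 10.23, 10.96 and 11.19 in TonEBP +/- mice. WT array 3 was the highest, with Jun at 11.54, 11.50 and 13.76 and Egr1 at 11.52, 11.43 and 14.73 across the WT arrays.

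The sequence before the start of Nr4a1 is shown because the gene is a known target of cyclic AMP signalling through CREB and its response elements. The 250 bases come from RefSeq (GRCm38.p6), in the direction of the gene, and the letters TGCGTCA, a form of the cyclic AMP response element, are in capitals.
Nr4a1: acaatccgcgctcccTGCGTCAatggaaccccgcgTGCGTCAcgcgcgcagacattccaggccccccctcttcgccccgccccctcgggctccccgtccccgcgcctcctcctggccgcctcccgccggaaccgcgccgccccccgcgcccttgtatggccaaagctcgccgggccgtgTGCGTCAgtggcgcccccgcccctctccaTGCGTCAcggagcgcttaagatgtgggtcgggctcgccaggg
The window is chr15:101266596-101266845, plus strand. TGCGTCA was searched on both strands and found 4 times without overlap, while 1.75% of the 32851 windows hold it at all. The TonEBP core TGGAAA was not found in this window. Pde1b, a phosphodiesterase that degrades cyclic nucleotides, was also higher, at 7.86, 8.03 and 7.72 in WT and 8.68, 9.28 and 8.76 in TonEBP +/- mice (difference 1.03, SE 0.213, adjusted p = 0.257).

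**Figure D3:**
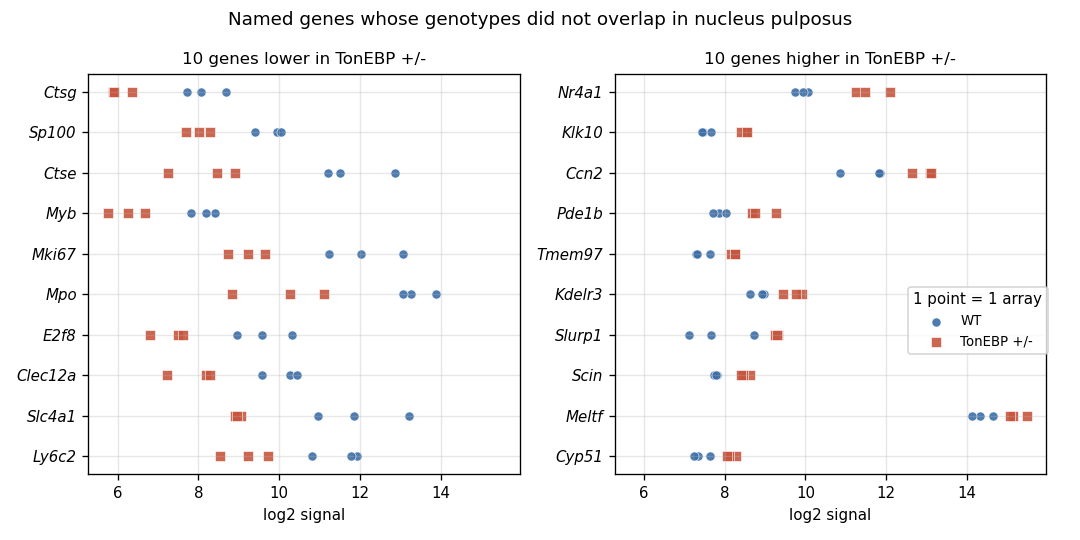
Each point is 1 array, circles for WT and squares for TonEBP +/- mice, placed by log2 signal for the 10 genes with the smallest p in each direction among those without overlap, at least 1.5-fold apart and above background in the higher genotype. Mpo, Ctse, Slc4a1 and Mki67 differ by 2.90 log2 or more, and the genes higher in TonEBP +/- mice by 0.71 to 1.69.

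Ccn2, the matricellular connective tissue growth factor, was at 11.85, 11.82 and 10.85 in WT and 13.08, 13.10 and 12.63 in TonEBP +/- mice. All 3 TonEBP +/- arrays lay above the WT arrays, of which array 3 was the lowest (1.43 log2, SE 0.285, 2.69-fold higher, adjusted p = 0.239). Of 6 genes of its family, grouped after their values were seen, Ccn5 also did not overlap (10.94, 10.30 and 10.71 against 11.39, 11.34 and 11.21), and Ccn1 did (17.41, 15.24 and 16.11 against 17.71, 16.58 and 15.75). Genes of sterol synthesis, grouped likewise, had 2 of 22 higher and 1 lower by the rule (median 0.19). Cyp51, the lanosterol demethylase, was at 7.64, 7.34 and 7.24 and 8.28, 8.11 and 8.05, and Tmem97, a sterol-regulated membrane protein, at 7.30, 7.32 and 7.64 and 8.16, 8.25 and 8.27. Both lay low, near the background level. The gene that was lower was Lbr, an inner nuclear membrane sterol reductase known for its role in the nuclei of granulocytes (-0.88). Other genes among the 10 with the smallest p upwards were Kdelr3, which retrieves proteins to the endoplasmic reticulum (0.87, SE 0.202), Scin, an actin-severing protein (0.71, SE 0.174), and Meltf, melanotransferrin, an iron-binding membrane protein (0.86, SE 0.21). Their adjusted p ran from 0.315 to 0.358.

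Genes well expressed in the NP samples, the top 10% of clusters by mean signal without the genes of the blood and marrow lists, numbered 2207. Their differences had a median of 0.06 and quartiles of -0.05 and 0.19, against quartiles of -0.16 and 0.17 over all clusters. Of the 2207 intervals 2033 (92.1%) stayed within 2-fold, near the 89.6% of all clusters. At any size without overlap, 71 of the 2207 were lower and 194 higher, while over all 22206 clusters 1316 (5.93%) were lower and 1186 (5.34%) higher. By this count the well expressed genes leaned upward, and all clusters did not. With at least 1.5-fold there were 20 lower (0.906%) and 16 higher (0.725%), against 1.94% and 0.712% of all clusters. Of the 20 lower clusters, 8 were histone genes and 7 carry no gene name here. The remaining 5 were Car2, Ncoa4, Tacr1, Slc39a8 and Lilrb4a. Car2, a carbonic anhydrase of red cells, osteoclasts and other cells, was at 13.46, 14.10 and 12.80 in WT and 12.16, 11.23 and 11.37 in TonEBP +/- mice (difference -1.87, SE 0.346, adjusted p = 0.218; 0.0382 in the 12-array fit). Ncoa4, the receptor that delivers ferritin for breakdown and is active in red cell precursors, was at 13.35, 13.42 and 12.76 and 11.96, 12.10 and 12.30 (-1.06, SE 0.223, adjusted p = 0.257). Neither gene overlapped between genotypes. Tacr1, the substance P receptor, differed by -0.69, the zinc transporter Slc39a8 by -0.60, and Lilrb4a, an inhibitory receptor of myeloid cells, was far lower on TonEBP +/- array 2 than on the other arrays (12.24, 12.62 and 12.13 against 11.47, 8.29 and 12.09). Among the 7 without a name, TC0700003908.mm.2 was at 19.20, 19.60 and 18.51 and 17.47, 15.71 and 17.28, and TC1100000339.mm.2 at 19.18, 19.58 and 18.41 and 17.62, 15.50 and 17.23. TonEBP +/- array 2 was the lowest for both, as in the blood and marrow lists.

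Of the well expressed genes that were higher, Meltf was at 14.31, 14.65 and 14.12 in WT and 15.47, 15.14 and 15.05 in TonEBP +/- mice (difference 0.86, SE 0.21, adjusted p = 0.358). Cpe, a carboxypeptidase that trims peptide hormones, was at 12.48, 12.59 and 12.73 and 13.59, 13.15 and 13.24 (0.73, SE 0.192, adjusted p = 0.431). Got1, the cytosolic aspartate aminotransferase, was at 11.38, 10.79 and 10.73 and 11.86, 11.71 and 11.72 (0.80, SE 0.215, adjusted p = 0.444). For each of these the TonEBP +/- arrays lay above all WT arrays. Scarb2, a lysosomal membrane protein, was at 11.95, 12.07 and 12.39 and 12.94, 12.77 and 12.81 (0.70, SE 0.189, adjusted p = 0.446). Ccn2 and Loxl3, described above, are among the 16 as well. The others included Lgmn, a lysosomal cysteine protease (0.67), P3h2, a collagen prolyl hydroxylase (0.84), and Ltbp1, which tethers latent TGF beta to the matrix (0.59).

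**Figure D4:**
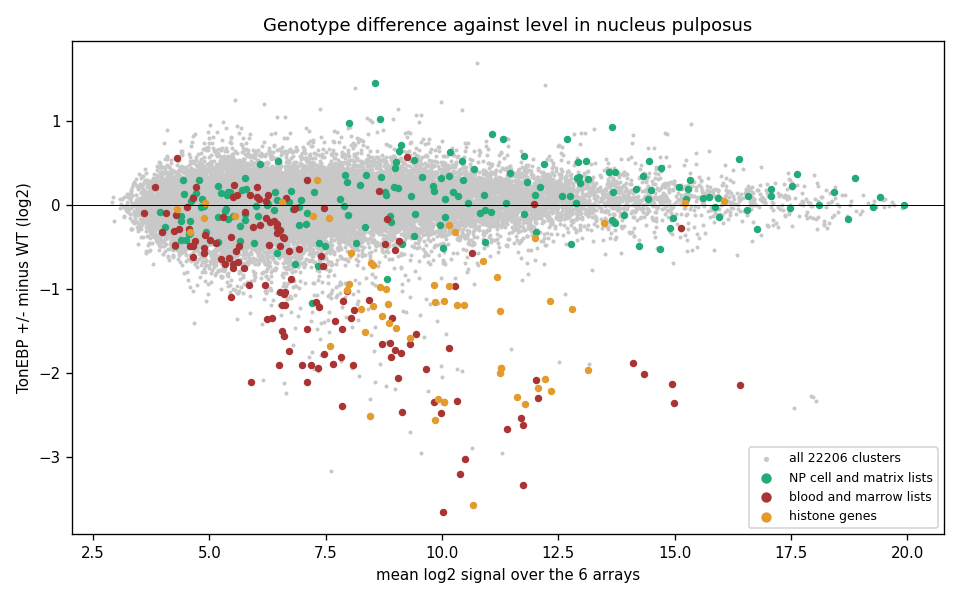
Each grey point is 1 of 22206 clusters, placed by its mean log2 signal over the 6 arrays and its difference between genotypes. Genes of the blood and marrow lists and histone genes reach far below 0 at middle and high signals, and genes of the NP cell and matrix lists lie between -1.17 (Aqp1) and 1.45, with Slurp1 at 1.45 and Col18a1 at 1.02 the highest.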

How the data were processed

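The members and gene lists were chosen with earlier results of these data known. The authors' deposited values are log2 signals from Clariom S Mouse arrays, made with Affymetrix Expression Console and RMA per the submitters' processing notes, which name no version. RMA corrects background, equalises the arrays normalised together and summarises probes, and which arrays were normalised together is not given in the sources used here. RNA came from the pooled disc tissue of a single mouse per sample, per the labels' protocols, so replicates are separate animals.

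Of 28846 probe sets 6640 controls were left out, 23 of them background probe sets. The array's gene table, updated through the RefSeq table of GRCm38.p6, named 19572 of the 22206 clusters, and 2634 have no name here. A gene with several clusters is represented by the one with the highest mean. Of 575 listed genes in 32 lists, 49 had no cluster and were not analysed here. A few further gene families and the histone genes were grouped after seeing values.

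TonEBP +/- was compared with WT by limma 3.58.1 in R 4.3.3 on the 6 NP arrays (4 residual degrees of freedom and 5.76 prior ones), and p-values were adjusted by Benjamini and Hochberg over all clusters, with calls at an adjusted p under 0.05. The procedure was tested on simulated data with 3 against 3 arrays and 200 changed clusters. It recovered 0% of changes of 1 log2, 84% of changes of 2 log2 and 98.5% of changes of 3 log2. In that setting the fit of 6 arrays could not call 2-fold changes, so 0 calls do not exclude them. The simulation shuffled the spreads among clusters and drew the noise of each cluster independently. In the real data the later granule list had a median interval half-width of 1.33 log2, against 0.48 over all clusters. The recovered shares therefore need not hold for such genes, and 0 calls do not exclude larger changes in them either. Figures were drawn with matplotlib 3.10.9 in Python 3.11.15. Duplicate arrays were looked for, and differences between any pair had an SD of at least 0.414 log2. Alternatives were all 12 arrays, subtraction of array medians, quantile normalization, an intensity trend, a robust prior, a filter on dim clusters, other ways to treat several clusters of a gene, a wider set of well expressed genes, and leaving out each array.

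Genes were named by rule: Nfat5, defining markers of each cell type, the 10 lower and 10 higher genes with the smallest p among those without overlap, at least 1.5-fold apart and above background on all 3 arrays of the higher genotype, the 5 lower and 5 higher among well expressed genes, and up to 4 genes per list by p. Other genes named in the text are members of a list or of the well expressed set and were chosen after their values were seen.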

Additional observations from a re-analysis of the deposited data

Results flagged for a closer look

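The genotype difference in NP was set against that in AF, from all 12 arrays, for the 139 genes and clusters named by the rule. The contrast of the differences, NP minus AF, had an adjusted p under 0.05 in limma for 38 of them (0.00687 to 0.0497), beside 197 of all 22206 clusters (0.887%), and these drew notice because the tissues differed by that test. The named genes were chosen for their difference in NP, so their number is not compared with that share.

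Of the 38 contrasts 34 were below 0, and in 33 of these the measured difference was negative in NP and positive in AF, whatever its size. Taken alone on 12 arrays, 15 of the 38 passed an adjusted p under 0.05 in NP and 18 in AF (14 higher and 4 lower), and 3 passed in both. Ctsg, Ms4a3, Camp, Ube2c and Aqp1 were not above background in TonEBP +/- NP, so that their contrasts are measured signals set against background and no fold is to be read from them. The values below are log2 contrasts. For neutrophil and monocyte genes they were Mpo -4.31, Elane -4.91, Ctsg -3.49, Ms4a3 -3.17, Camp -4.50, Ltf -3.99, Chil3 -3.87, Itgb2l -3.67, Lyz2 -3.49, Ly6c2 -3.68, Fcgr3 -3.35 and Clec12a -3.81. For leucocyte-wide genes they were Ptprc -3.11, Cybb -4.06, Ncf1 -4.39 and Ncf4 -3.24. For red cell genes they were Ctse -3.96 and Slc4a1 -2.88. For genes of dividing cells and histones they were Mki67 -3.47, E2f8 -3.10, Ube2c -2.52, Rrm2 -2.55, H2ac10 -3.06, H2ac11 -3.24, H2ac12 -3.40 and TC1300000181.mm.2 -3.42. For interferon-related genes they were Sp100 -2.69, Ly6e -4.23 and Ifitm3 -3.08. For further genes they were Aqp1 -1.55, Cxcl12 -3.44 and Col1a1 -4.23. Cxcl12 and Col1a1 differed little in NP (-0.37 and -0.05) and were higher in AF of TonEBP +/- mice. Their AF differences were 3.07 and 4.18 (adjusted p = 0.0111 and 0.00772, limma on 12 arrays). For unnamed clusters they were TC0700003908.mm.2 -2.33 and TC0700003909.mm.2 -2.38. These clusters lay at 19.9 on the AF arrays, the array maximum, and TC0700003908.mm.2 was up to 19.6 in NP of WT mice. The contrasts therefore cannot show a rise in AF and have no exact size. The 4 above 0 were Fmod 2.28, Acan 2.13, Slurp1 2.83 and Htra1 2.85. These are the 4 that passed as lower in AF, with AF differences of -2.11, -2.03, -1.38 and -2.70 in that order. Their NP differences were 0.18, 0.09, 1.45 and 0.15. Acan lay near the array maximum in NP, where a rise cannot be measured, and Fmod, a collagen-binding proteoglycan, overlapped between genotypes in NP.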

How the results depend on the processing

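With 3 arrays per genotype, calls depend on single arrays. Limma called 25 clusters lower with all 12 arrays, and leaving out 1 NP array at a time gave 0 to 62 lower and 0 to 1 higher. The counts of at least 1.5-fold without overlap became 578 to 820 lower and 304 to 394 higher, since fewer arrays overlap less often by construction. They were 190 and 90 among clusters above background alone, where fewer clusters were counted. In well expressed genes the omissions gave 22 to 39 lower, 26 to 41 higher and medians of 0.032 to 0.084. With the top 25% in place of the top 10% there were 64 lower and 47 higher, and without unnamed clusters, histone genes, Car2 and Ncoa4, an alternative chosen after seeing the data, 3 lower. The median was 0.10 with array medians subtracted.

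List medians moved most when dim members were left out: neutrophil precursor -3.21, monocyte -1.95, eosinophil -1.94, erythroid -1.78, Schwann -1.03, protease 0.12, osmoprotective 0.14, epithelial 0.18, glycosaminoglycan 0.26, annulus 0.29, adipocyte 0.30, basement membrane 0.36 and fibrillar collagen 0.46, by construction over fewer genes. Other lists kept 1 gene, so the values are that gene's own: B cell -0.61 (Ebf1), T and NK -0.036 (Cd4), osteoclast 0.27 (Ctsk), muscle -0.33 (Mb) and megakaryocyte 0.16 (Itga2b), where the median of the whole list was -0.24. With array medians subtracted or quantile normalization, the B cell median was -0.41 and the T and NK median -0.30. Over all clusters the median was 0.01 as deposited, 0.05 with array medians subtracted and 0.02 after quantile normalization. Omitting 1 array gave these ranges of medians: neutrophil precursor -1.81 to -1.22, later granule -2.33 to -1.08, monocyte -0.59 to -0.22, leucocyte-wide -1.88 to -1.03, erythroid -1.10 to -0.67, megakaryocyte -0.26 to -0.23, B cell -0.51 to -0.36, T and NK -0.46 to -0.25, eosinophil -1.06 to -0.49, stem cell -0.24 to 0.014, osteoclast -0.26 to -0.019, osteoblast -0.32 to -0.095, muscle -0.22 to -0.097, endothelial -0.19 to -0.035, adipocyte -0.18 to 0.042, Schwann -0.14 to 0.16, annulus -0.18 to 0.005, NP and notochord -0.036 to 0.063, epithelial -0.036 to 0.073, cartilage 0.093 to 0.22, osmoprotective -0.13 to 0.070, glycosaminoglycan 0.11 to 0.27, fibrillar collagen 0.19 to 0.33, basement membrane 0.12 to 0.31, protease -0.039 to 0.10, actin -0.22 to -0.058, cytokine -0.071 to 0.075, hypoxia 0.050 to 0.22, interferon -0.40 to -0.18, cell cycle -0.81 to -0.61, endoplasmic reticulum stress 0.080 to 0.21, immediate early -0.24 to 0.20, CCN 0.21 to 0.58, NR4A 0.66 to 1.13, sterol 0.059 to 0.23, histone -1.49 to -0.93. Of the 139 named genes 18 had an adjusted p under 0.05 with all 12 arrays and 24 without WT array 3. The labels give no animal number, so NP and AF arrays could not be paired by mouse. The fits of all 12 arrays treated every array as independent, and any pairing of tissues within a mouse was ignored.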
